A study of Mus musculus with 8 samples.

Results

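The genes described here are 33 genes of the cathepsins, the lysosome and autophagy, measured in Ly6C-high myeloid cells of irradiated and sham-treated mouse tumours. They were chosen by name, as the probe set rows that the array annotation maps to exactly 1 of these symbols, and all 33 were found among the 22180 genes measured. Each of 8 arrays held RNA from 1 mouse. The hosts were female C57BL/6 mice, 8 weeks old, each bearing a subcutaneous tumour grown for 14 days from line 152, a pancreatic cancer line from the KPC model, whose tumour cells carry Pdx1-Cre with the KrasLSL-G12D/+ and Trp53LSL-R172H/+ alleles. The tumour received 20 Gy in 4 mice and a sham treatment in the other 4 mice, and CD45+ CD11b+ Ly6Chi cells were sorted 1 day later. All tumours thus came from 1 cell line, and the sorted cells are those of the host, for which no engineered allele is named. Levels are log2 values, on which a difference of 1 is a doubling, and a difference always means irradiated minus sham.

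Lysosomes are acidic organelles in which macrophages break down engulfed cells, microbes and worn-out cell parts. A proton pump of the membrane, the V-ATPase, acidifies them, and cathepsins and other hydrolases then degrade protein, sugar chains and lipid. Autophagy delivers the cell's own cytoplasm to the same compartment inside double membranes. Transcription factors of the MiT family, of which TFEB is the best known, act on genes of both systems through a short E-box element in their promoters. In monocytes that mature into macrophages, lysosomal content is known to grow.

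Checks of the sort and of the treatment were read from the same arrays. Ptprc (CD45) stood between 11.50 and 11.71 and Itgam (CD11b) between 10.68 and 11.28 across the 8 mice, and Ly6c2 ran from 10.77 to 12.45. The p53 targets Cdkn1a and Mdm2 differed by 0.39 ± 0.14 and 0.65 ± 0.20 (SE), each at an adjusted p of 0.819 in limma. The groups overlapped for Cdkn1a and not for Mdm2 (3.68% of all genes did not overlap). All 4 listed p53 targets, these 2 among them, were higher at an unadjusted p under 0.05 in limma (2.05% of all genes). For 3 of the 4 the groups did not overlap, on the higher side (1.12% of all genes), and none of the 4 passed after adjustment. The arrays were uneven in markers of other cells. The mean of 19 measured T and NK cell markers (of 21 listed) was 5.30, 7.52, 7.79 and 5.68 for sham mice 1 to 4 and 6.60, 5.28, 5.19 and 6.60 across irradiated mice 1 to 4. Neutrophil markers, 13 of 13 measured, averaged between 7.21 and 8.58 in sham mice and between 6.31 and 7.52 in irradiated mice; their granule gene Camp stood at 8.02 and 10.10 in sham mice 2 and 3 and between 3.08 and 3.69 in the other 6 mice. Macrophage maturation markers, 15 of 16 measured, averaged 9.25, 8.79, 8.69 and 9.41 for sham mice 1 to 4 and 9.02, 9.23, 9.61 and 8.70 across irradiated mice 1 to 4. In such bulk RNA, fewer cells of a type and less RNA per cell cannot be told apart.

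Stretches of promoter are shown first, since the MiT family acts on lysosomal genes through an element of this kind. In RefSeq promoters of build GRCm38.p6, reaching from 250 bases before to 50 after the start, 27 of the 33 genes had an entry, the others being Atp6v0d2, Atp6v1h, Becn1, Ctsb, Ctsh and Npc1. The palindromic E-box CACGTG was found in 9 of the 27 (33.3%) and in 8.09% of 27025 genes. The longer form TCACGTGA, which contains the E-box and is the core of the CLEAR element bound by TFEB, was found in 6 of the 27 (22.2%) and in 1.12% of all genes. In the following stretches, written 5′ to 3′ on the strand of the gene, capitals mark the E-box or, where present, its longer form.
Ctsa, chr2:164833749-164833778, plus strand: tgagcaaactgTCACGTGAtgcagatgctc
Ctsd, chr7:142387908-142387937, minus strand: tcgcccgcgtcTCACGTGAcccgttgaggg
Mcoln1, chr8:3500462-3500491, plus strand: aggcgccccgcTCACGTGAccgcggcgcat
Atp6v0d1, chr8:105566050-105566079, minus strand: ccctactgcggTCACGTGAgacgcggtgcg
Atp6v1a, chr16:44139373-44139402, minus strand: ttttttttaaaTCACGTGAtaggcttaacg
Gla, chrX:134601182-134601211, minus strand: tgagatctcggTCACGTGAgcaactctcgg
Lgmn, chr12:102439124-102439153, minus strand: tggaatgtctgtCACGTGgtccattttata
Ctsl, chr13:64370739-64370768, minus strand: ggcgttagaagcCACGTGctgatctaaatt
Lamp1, chr8:13159081-13159160, plus strand: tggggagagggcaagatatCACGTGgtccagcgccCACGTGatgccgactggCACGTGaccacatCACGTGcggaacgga

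Lamp1 thus holds 4 copies of the E-box in the 80 bases before its start, the promoters of Ctsa and Gla each hold a further copy of the longer form, and those of Ctsd and Mcoln1 a further E-box. A match describes the sequence and is not a measured binding site.

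The comparison asked whether the lysosomal and autophagy genes of these cells differed 1 day after the tumour was irradiated. None of the 33 genes passed the adjusted threshold of 0.05 in limma, and none had an unadjusted p under 0.05. Across all 22180 genes, 0 also passed the adjusted threshold (0%), while 1347 (6.07%) had an unadjusted p under 0.05, 2.05% on the higher and 4.03% on the lower side. The genes split evenly, with 17 of 33 higher on average in irradiated mice (42.2% of all genes were), and their median difference was 0.01, against -0.03 over all genes. Their adjusted p ran from 0.827 upward. The 95% interval lay wholly between -1 and 1, that is, within a 2-fold change either way, for 31 of 33 genes (97.2% of all genes), and wholly between -0.5 and 0.5 for 27 (69.2% of all genes). Ctsk and Atp6v0d2 were the exceptions at the wider bound, so a 2-fold fall of either lies within its interval. A p that misses the threshold does not show that the levels were equal.

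**Figure D1:**
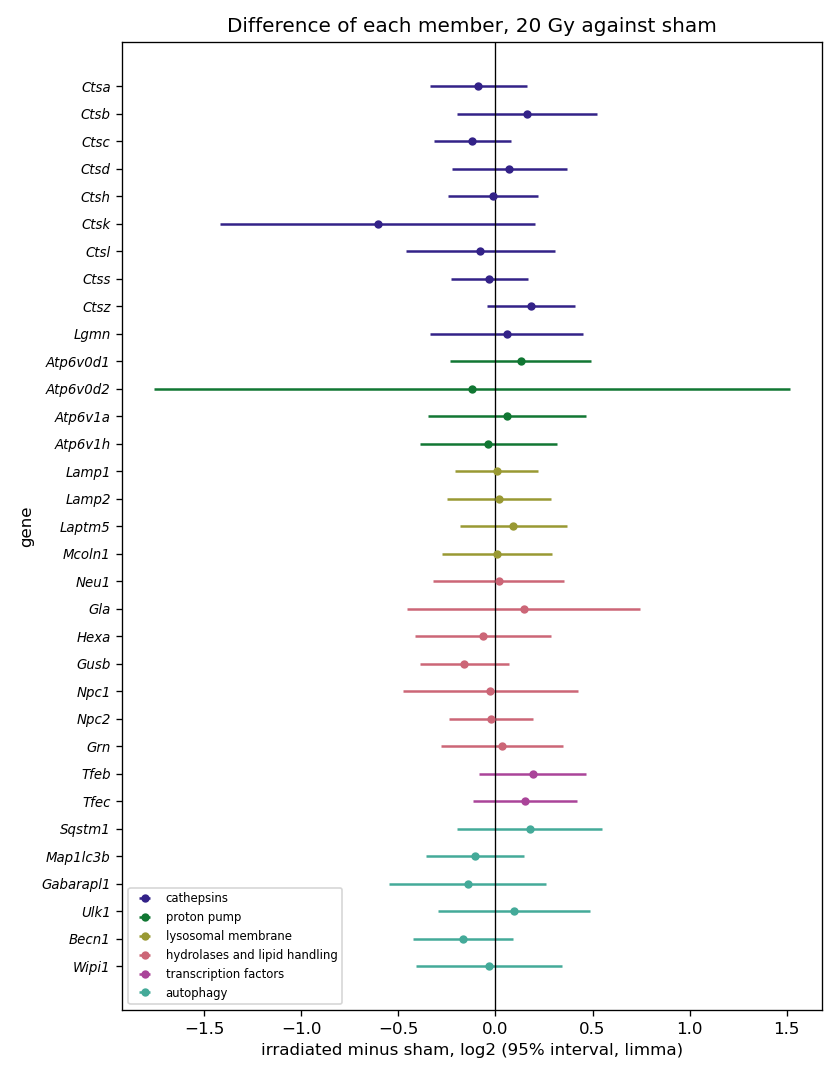
Difference between irradiated and sham mice for each of the 33 genes on the log2 scale (x axis), coloured by role, with the 95% interval of the limma fit as a bar. Every interval crosses 0; those of Ctsk and Atp6v0d2 are the only ones that reach beyond -1 or 1.

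Cathepsins are the main proteases of the lysosome. Of the 10 members of this group, 4 were higher and 6 lower on average in irradiated mice, with a median difference of -0.02, and none had an unadjusted p under 0.05. Their group mean was 10.78 ± 0.18 without and 10.74 ± 0.12 with irradiation (SD, n = 4 each).

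Ctsc encodes cathepsin C, or dipeptidyl peptidase 1, which activates the serine proteases of neutrophils and cytotoxic lymphocytes. It stood at 11.93, 11.87, 11.85 and 12.02 across sham mice 1 to 4 and at 11.81, 11.78, 11.79 and 11.81 across irradiated mice 1 to 4. All 4 irradiated mice lay below the lowest sham mouse, though the gap between the groups was small. Ctsc was the only 1 of the 33 genes whose groups did not overlap, and groups without overlap were found for 3.68% of all genes (2.56% on the lower side). Its difference was -0.12 ± 0.09 (SE), with a 95% interval of -0.32 to 0.08 and an adjusted p of 0.861 in limma. The 4 irradiated mice varied less (SD 0.01) than the 4 sham mice (SD 0.07).

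Ctsz encodes cathepsin Z, a carboxypeptidase also called cathepsin X. It stood at 10.60, 10.74, 10.56 and 10.80 across sham mice 1 to 4 and at 10.92, 10.89, 10.91 and 10.71 across irradiated mice 1 to 4. Irradiated mice 1 to 3 lay above every sham mouse and irradiated mouse 4 lay within the sham range. The difference of 0.18 ± 0.10 (SE) had the smallest adjusted p of the 33 genes, 0.827 in limma, with a 95% interval of -0.04 to 0.41. After quantile normalization of the arrays its unadjusted p fell under 0.05 and its groups no longer overlapped (3.48% of all genes then did not), at a difference of 0.22 and an adjusted p of 0.863.

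Ctsk encodes cathepsin K, the collagen-degrading protease best known from osteoclasts. It stood at 7.29, 6.80, 6.22 and 7.61 across sham mice 1 to 4 and at 5.77, 5.79, 6.80 and 7.14 across irradiated mice 1 to 4. Irradiated mice 1 and 2 were the lowest of all 8, and irradiated mice 3 and 4 lay within the sham range. Its difference of -0.61 ± 0.37 (SE) was the largest in size among the 33 genes, with a 95% interval of -1.42 to 0.21 (adjusted p = 0.836 in limma). That difference was -0.40 without sham mouse 4, -0.41 without irradiated mouse 1 and -0.41 without irradiated mouse 2. It was -1.07 without sham mice 2 and 3, which with irradiated mice 1 and 4 had the highest T and NK markers, and -0.79 with the mean of those markers as a covariate. The unadjusted p then fell under 0.05 in both fits, but the adjusted p, 0.743 and 0.699, did not.

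Ctsk and Ctsc, the gene with the largest difference and the one whose groups did not overlap, held no E-box in this window. Their 250 bases before the start are given with GAGGAAG, a core of the sites that the myeloid ETS factor PU.1 can bind, in capitals on either strand. This motif was present in 15.4% of all genes' promoters, and in 7 of the 27 (25.9%). The M-box TCATGTG and the AP-1 motif TGANTCA, searched on both strands, were found in neither. Over all genes they were present in 4.31% and 8.97%.
Ctsk, chr3:95498960-95499209, plus strand: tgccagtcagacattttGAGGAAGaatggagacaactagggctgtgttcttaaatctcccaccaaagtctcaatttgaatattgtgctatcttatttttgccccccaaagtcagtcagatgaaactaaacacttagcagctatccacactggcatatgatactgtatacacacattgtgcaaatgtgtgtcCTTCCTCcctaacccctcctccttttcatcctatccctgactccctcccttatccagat
Ctsc, chr7:88277835-88278084, plus strand: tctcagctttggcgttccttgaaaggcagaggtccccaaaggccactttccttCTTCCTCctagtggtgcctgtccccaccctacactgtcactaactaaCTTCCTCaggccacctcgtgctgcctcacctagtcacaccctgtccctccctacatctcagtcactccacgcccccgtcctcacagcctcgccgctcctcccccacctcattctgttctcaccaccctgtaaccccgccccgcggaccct

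The other cysteine cathepsins differed by less than the spread between mice. Ctsb, which encodes cathepsin B, an abundant protease of macrophages, stood at 11.55, 11.33, 11.01 and 11.64 across sham mice 1 to 4 and at 11.61, 11.60, 11.75 and 11.21 across irradiated mice 1 to 4. Sham mouse 3 and irradiated mouse 4 were the lowest of their groups, and the difference was 0.16 ± 0.16 (SE), or 0.04 without sham mouse 3. Ctsl, which encodes cathepsin L, ran from 10.32 to 10.94 in sham mice and from 10.11 to 10.80 in irradiated mice. Ctss, which encodes cathepsin S, the protease that trims the invariant chain of MHC class II, varied least of the 33 genes: its 8 values spanned 0.17, from 12.18 in sham mouse 3 to 12.34 in sham mouse 4. Its difference was -0.03 ± 0.09 (SE; 95% interval -0.23 to 0.17). Ctsh, an aminopeptidase, differed by -0.01 ± 0.10.

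The 3 remaining proteases of the group were Lgmn, Ctsd and Ctsa. Lgmn encodes legumain, an asparaginyl endopeptidase that processes other cathepsins, and it stood at 10.98, 10.82, 10.62 and 11.05 across sham mice 1 to 4 and at 10.83, 10.99, 11.37 and 10.51 across irradiated mice 1 to 4. The irradiated mice held both the highest and the lowest value, and the difference of 0.06 ± 0.18 (SE) became -0.09 when irradiated mouse 3 was left out and 0.20 when irradiated mouse 4 was. Ctsd, which encodes the aspartic protease cathepsin D, ran from 11.23 to 11.66 in sham and from 11.25 to 11.74 in irradiated mice, a difference of 0.07 ± 0.13. Ctsa encodes cathepsin A, or protective protein, a carboxypeptidase that also stabilises sialidase and beta-galactosidase. It lay between 10.96 and 11.05 in the 4 sham mice and between 11.00 and 11.03 in irradiated mice 1 to 3, with irradiated mouse 4 apart at 10.63. Its difference of -0.09 ± 0.11 became 0.01 without that mouse.

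**Figure D2:**
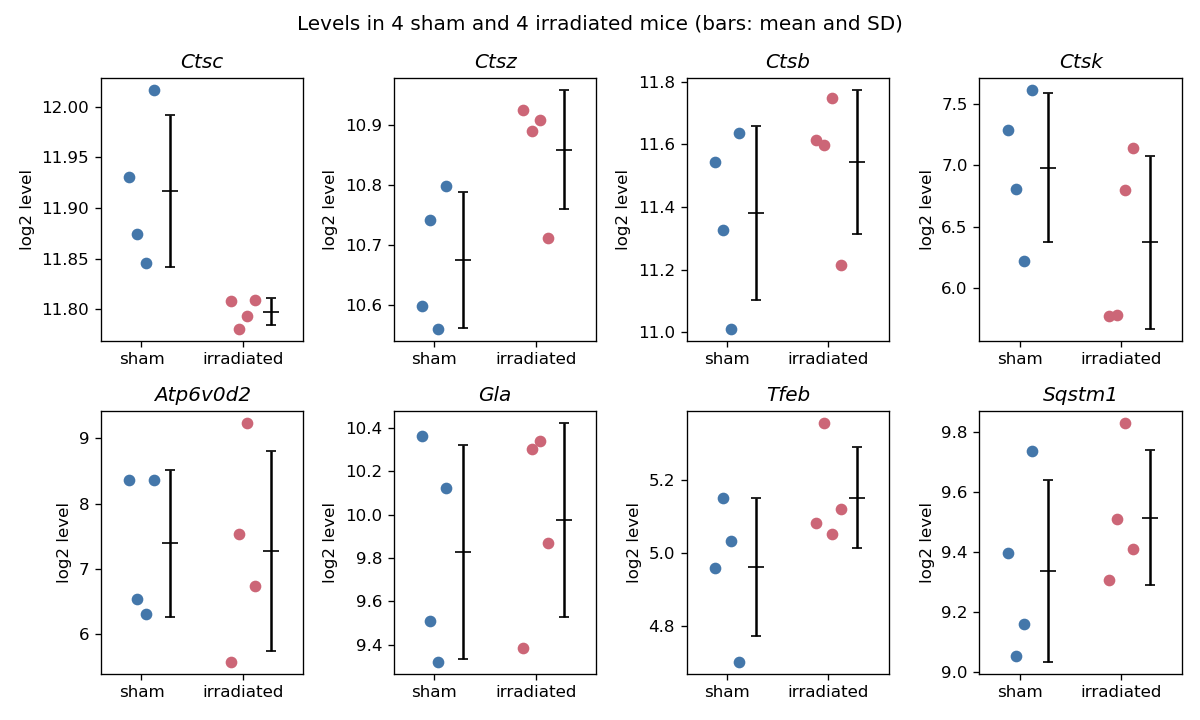
Log2 levels of 8 of the genes in sham mice (blue points) and irradiated mice (red points), with the mean and SD of each group in black; each panel has its own y axis, which does not start at 0. The groups are separate for Ctsc, at 11.85 to 12.02 against 11.78 to 11.81, and overlap in the other 7 panels.

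The V-ATPase has a peripheral domain, V1, that hydrolyses ATP and a membrane domain, V0, that carries protons. Of its 4 members here, 2 were higher and 2 lower on average in irradiated mice, with a median difference of 0.01. Atp6v0d2 encodes the d2 isoform of a V0 subunit, which is prominent in osteoclasts and macrophages. It stood at 8.36, 6.54, 6.30 and 8.36 across sham mice 1 to 4 and at 5.58, 7.54, 9.23 and 6.74 across irradiated mice 1 to 4. The values spanned 3.65, the widest range of the 33 genes, and the irradiated mice lay on both sides of the sham mice. The group means were 7.39 ± 1.13 and 7.27 ± 1.53 (SD, n = 4 each), a difference of -0.12 with a 95% interval of -1.76 to 1.52. Leaving out irradiated mouse 3 made it -0.77 and leaving out irradiated mouse 1 made it 0.44.

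The other pump genes varied less. Atp6v0d1, which encodes the ubiquitous d1 isoform, lay between 9.43 and 9.61 in 7 of the mice and at 8.82 in sham mouse 3. Its difference of 0.13 ± 0.16 (SE) was -0.05 without sham mouse 3. Atp6v1a, the catalytic A subunit of V1, ran from 9.14 to 9.84 in sham and from 9.34 to 10.00 in irradiated mice and differed by 0.06 ± 0.18. Atp6v1h, a regulatory subunit, differed by -0.04 ± 0.16, with sham mouse 3 again the lowest, at 8.36.

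Among the genes of the lysosomal membrane, all 4 had a higher mean in irradiated mice, by 0.01 to 0.09, and none beyond the spread between mice. Lamp1 and Lamp2 encode the 2 abundant glycoproteins that line the membrane. Lamp1 ran from 11.30 to 11.47 in sham and from 11.27 to 11.49 in irradiated mice (difference 0.01, 95% interval -0.21 to 0.22), and Lamp2 differed by 0.02 (95% interval -0.25 to 0.29). Laptm5, a lysosomal membrane protein of blood cells, differed by 0.09 ± 0.12 (SE), and Mcoln1, the calcium channel TRPML1, by 0.01 ± 0.13. With the T and NK marker mean as a covariate the median difference of these 4 genes was -0.05.

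The hydrolases and lipid-handling genes had a median difference of -0.02, with 3 higher and 4 lower. Gla encodes alpha-galactosidase A, which removes galactose from glycolipids. It stood at 10.37, 9.51, 9.32 and 10.12 across sham mice 1 to 4 and at 9.39, 10.30, 10.34 and 9.87 across irradiated mice 1 to 4. Each group held 2 mice above 10 and 2 below, and the difference was 0.15 ± 0.27 (SE; 95% interval -0.45 to 0.75). Gusb, which encodes beta-glucuronidase, stood at 9.09, 9.18, 9.14 and 9.22 across sham mice 1 to 4 and at 8.91, 8.89, 9.21 and 8.98 across irradiated mice 1 to 4. Irradiated mice 1, 2 and 4 lay below every sham mouse, and irradiated mouse 3 lay within their range. Its difference was -0.16 ± 0.10 (adjusted p = 0.855 in limma); without irradiated mouse 3 it was -0.23 and the groups no longer overlapped (6.82% of all genes then did not), at an adjusted p of 0.855.

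Hexa, a beta-hexosaminidase subunit that degrades gangliosides, differed by -0.07 ± 0.16 (SE), and its lowest values were 9.95 in sham mouse 3 and 9.86 in irradiated mouse 4. Neu1, the lysosomal sialidase, differed by 0.02 ± 0.15. Npc1 and Npc2 encode the pair of proteins that move cholesterol out of the lysosome. Npc1 ran from 7.84 to 8.40 in sham and from 7.66 to 8.58 in irradiated mice, a difference of -0.03 ± 0.20. Npc2 varied little, from 11.91 to 12.14 across all 8 mice, with a difference of -0.02 ± 0.10. A second, dimmer probe set row of Npc1 differed by -0.15 ± 0.18. Grn, which encodes progranulin, a glycoprotein that is secreted and also carried to lysosomes, differed by 0.03 ± 0.14.

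Both transcription factor genes had a higher mean in irradiated mice. Tfeb, the best known activator of lysosomal genes, stood at 4.96, 5.15, 5.03 and 4.70 across sham mice 1 to 4 and at 5.08, 5.36, 5.05 and 5.12 across irradiated mice 1 to 4. The groups overlapped only through sham mouse 2, and the difference was 0.19 ± 0.12 (SE; 95% interval -0.08 to 0.47; adjusted p = 0.855 in limma), or 0.10 without sham mouse 4. These levels lie close to the median of all probe set rows. Tfec, the family member restricted largely to macrophages, stood at 10.27, 10.47, 10.16 and 10.37 across sham mice 1 to 4 and at 10.48, 10.45, 10.25 and 10.69 across irradiated mice 1 to 4. Its groups overlapped widely, with a difference of 0.15 ± 0.12 (95% interval -0.11 to 0.42) that was 0.08 without irradiated mouse 4.

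Of the 6 autophagy genes, 2 were higher and 4 lower on average in irradiated mice, with a median difference of -0.07, which was -0.16 without irradiated mouse 3 and -0.01 without irradiated mouse 1. Sqstm1 encodes p62, the receptor that links ubiquitinated cargo to the autophagosome. It stood at 9.40, 9.05, 9.16 and 9.74 across sham mice 1 to 4 and at 9.31, 9.51, 9.83 and 9.41 across irradiated mice 1 to 4. The groups overlapped, and the difference was 0.18 ± 0.17 (SE), or 0.07 without irradiated mouse 3 and 0.31 without sham mouse 4. Map1lc3b and Gabarapl1 encode members of the ATG8 family, which are joined to lipid on the growing membrane, and differed by -0.10 ± 0.11 and -0.14 ± 0.18. Without irradiated mouse 3 these became -0.19 and -0.31, and without irradiated mouse 1 they became -0.06 and -0.02. Gabarapl1 was lowest in irradiated mouse 1, at 6.83, and highest in irradiated mouse 3, at 7.72.

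None of the genes that act at the start of autophagy had an unadjusted p under 0.05. Ulk1, the initiating kinase, ran from 5.56 to 5.94 in sham and from 5.31 to 6.15 in irradiated mice and differed by 0.09 ± 0.18 (SE). Becn1 encodes Beclin 1, a subunit of the lipid kinase complex that nucleates the membrane. It stood at 7.14, 7.34, 7.41 and 7.51 across sham mice 1 to 4 and at 7.25, 7.34, 7.12 and 7.03 across irradiated mice 1 to 4, a difference of -0.17 ± 0.12 (95% interval -0.43 to 0.09). Wipi1, a phosphoinositide-binding protein of the same step, differed by -0.03 ± 0.17.

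The variation among the mice was shared by many of the genes. Of the 33 genes, 13 were highest in irradiated mouse 3 and 9 in sham mouse 4, the 2 mice with the highest macrophage maturation markers; over all genes these shares were 11% and 20.7%. The lowest value fell in sham mouse 3 for 11 of the 33 genes and in irradiated mouse 4 for 8, the 2 mice with the lowest of those markers, against 14.9% and 12.7% of all genes. The markers did not order all mice: irradiated mouse 1, with a marker mean of 9.02, was lowest for 7 of the 33 genes (13% of all genes), and sham mouse 2, at 8.79, for 3 (10.9% of all genes). No gene of the 33 was lowest in irradiated mouse 3 or highest in sham mouse 3.

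**Figure D3:**
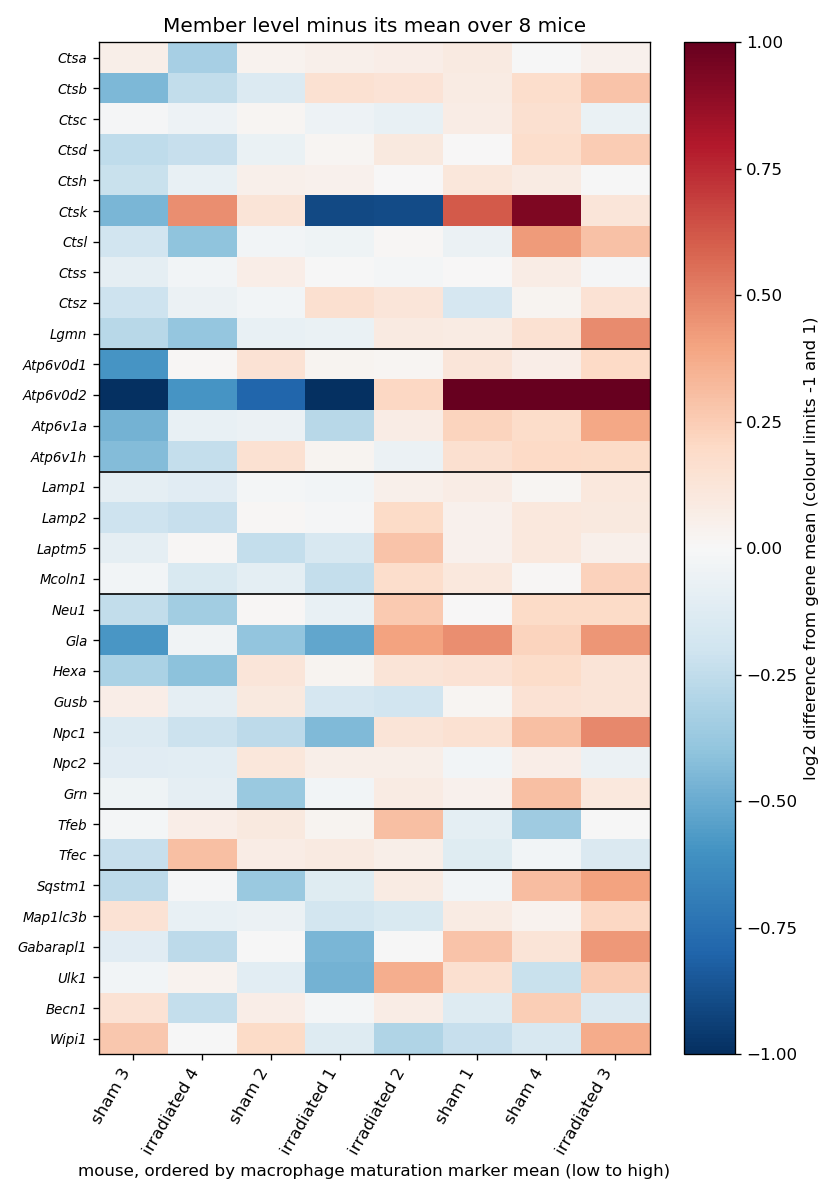
Level of each gene minus its mean over the 8 mice, on the log2 scale, with colours limited to -1 and 1 and mice ordered from left to right by their macrophage maturation marker mean (8.69 to 9.61). Black lines divide the roles. In most rows blue prevails on the left and red on the right within both treatments; Tfeb, Tfec and Wipi1 are exceptions, and the darkest row is Atp6v0d2.

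The relation to the macrophage markers was then fitted across all genes in limma, with treatment and the marker mean in 1 model; this fit was chosen after the data were seen, and none of the 33 genes is among the markers. The slope, in log2 units per log2 unit of the marker mean, was above 0 for 30 of the 33 genes (54% of all genes), with a median of 0.35 against 0.02 over all genes. It was positive at an unadjusted p under 0.05 for 13 of the 33 genes, and for 5.88% of all genes, and negative at that level for none of the 33 and 3.82% of all genes. None of the 33 passed after adjustment over all genes, whereas 64 genes (0.289%) passed with a positive slope and 21 (0.0947%) with a negative one. The 64 include 6 of the 15 macrophage markers, each of which is part of the mean it was fitted on. The 64 and 21 genes, 85 together, became 52, 18, 22 and 16 without sham mice 1, 2, 3 and 4. They became 40 and 36 without irradiated mice 2 and 3. The 13 were Ctsb, Ctsd, Ctsl, Lgmn, Atp6v0d2, Atp6v1a, Atp6v1h, Neu1, Gla, Hexa, Npc1, Sqstm1 and Gabarapl1. Atp6v0d2 had the steepest slope, 3.16 ± 0.61 (SE, adjusted p = 0.072 in limma). It was 2.58 when irradiated mouse 3 was left out and 4.09 when irradiated mouse 4 was. The slope passed the adjusted threshold without irradiated mouse 1 (adjusted p = 0.00944 in limma) or irradiated mouse 4 (0.0282). With any other single mouse left out its adjusted p was higher than with all mice, from 0.131 to 0.286 in limma. Lgmn had a slope of 0.75 ± 0.16 (adjusted p = 0.102), Npc1 of 0.80 ± 0.20 and Gla of 0.99 ± 0.30. Tfeb, Tfec and Wipi1 were the 3 genes with a slope below 0, at -0.22, -0.22 and -0.10.

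Markers of other cells varied with the macrophage mean too, some in the same and some in the opposite direction. Of 13 neutrophil markers, 6 had a positive slope at an unadjusted p under 0.05 and 2 a negative one; Mmp9, Cxcr2 and Csf3r, genes of mature neutrophils named after their values were seen, passed the adjusted threshold at slopes of 2.63, 3.95 and 1.71 (adjusted p = 0.00836, 0.0377 and 0.0189 in limma). Of 9 markers of the sorted monocytes, 8 had a slope below 0, 3 of them at an unadjusted p under 0.05, among them Ly6c2 at -1.28 (adjusted p = 0.183 in limma). T and NK markers also ran the other way, with 15 of 19 negative at an unadjusted p under 0.05. Of 11 stroma and tumour markers, 4 were negative at that level (3.82% of all genes) and none positive, with a median slope of -1.03. With the T and NK mean in place of the macrophage mean, Gla and Atp6v0d2 passed the adjusted threshold, at slopes of -0.42 and -1.11 (adjusted p = 0.0185 and 0.0406 in limma). Thus most monocyte, T and NK markers fell across the mice where the macrophage markers rose, and the neutrophil markers were split. The parts of these cells in the variation cannot be told apart here and were not tested. With the macrophage mean in the model, no gene of the 33 differed between treatments at an unadjusted p under 0.05, and their median difference was -0.03.

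**Figure D4:**
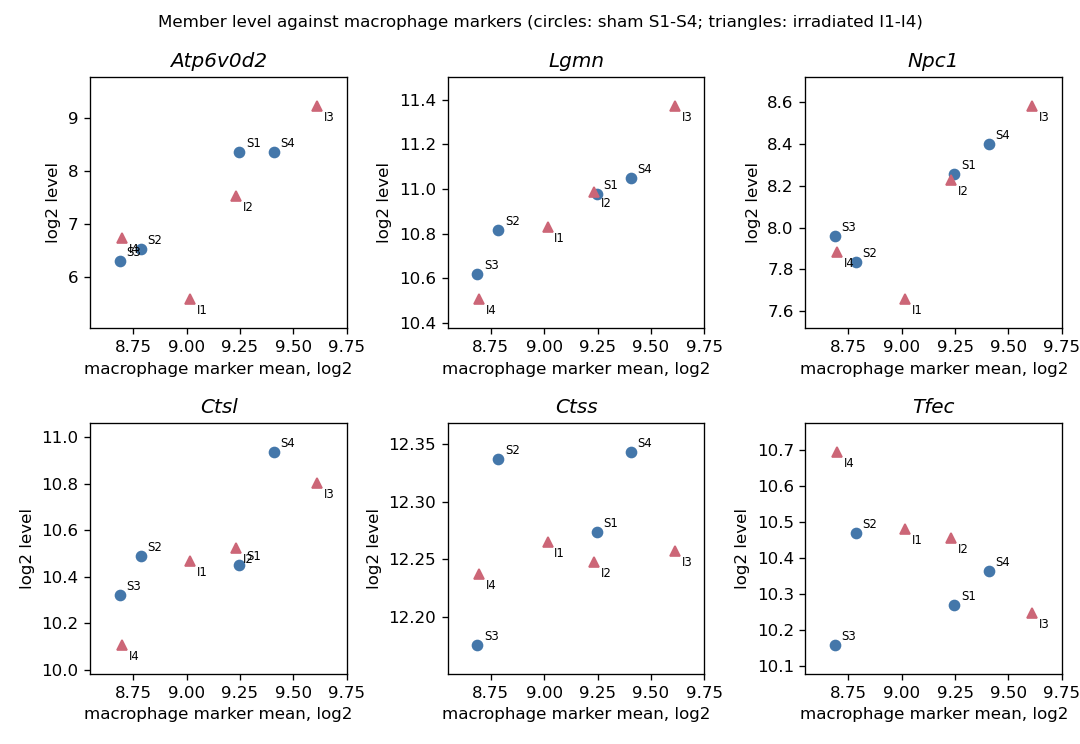
Log2 level of 6 of the genes (y axis, its own scale in each panel) against the mean of the 15 macrophage maturation markers (x axis), with circles for sham mice (S1 to S4) and triangles for irradiated mice (I1 to I4). Atp6v0d2, Lgmn and Npc1 were highest in I3 and Ctsl in S4, while the slopes of Ctss and Tfec were 0.06 and -0.22.

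The 9 genes whose E-box stretches are given above (Ctsa, Ctsd, Mcoln1, Atp6v0d1, Atp6v1a, Gla, Lgmn, Ctsl and Lamp1) differed between treatments by -0.09 to 0.15, with a median of 0.06. Of these 9, 7 were higher on average (42.2% of all genes were). The 18 with an entry and no E-box differed by -0.61 to 0.19, with a median of -0.0037. The median slope on the macrophage marker mean was 0.50 in the first set and 0.20 in the second. Positive slopes at an unadjusted p under 0.05 were found for 5 of the 9 and 4 of the 18 (5.88% of all genes). Genes with no promoter entry are in neither set, and of these Atp6v0d2, Atp6v1h, Ctsb and Npc1 had such a slope too. These are descriptions of 2 small sets, with no test between them.

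The rest of the pathway was read from 7 further lists, of which 143 of 154 genes were measured. None of the 143 passed the adjusted threshold (smallest adjusted p = 0.819 in limma), and 6 (4.2%) had an unadjusted p under 0.05, against 6.07% of all genes. Their median difference was -0.04. Of 14 other V-ATPase subunits, 10 were higher on average, and none had an unadjusted p under 0.05. Of 27 other hydrolases 8 were higher, with an unadjusted p under 0.05 for Smpd1, the acid sphingomyelinase gene, at -0.35 ± 0.14 (SE). Of 46 other autophagy genes 13 were higher, with an unadjusted p under 0.05 for 2, Stx17, a SNARE of autophagosome fusion (-0.39 ± 0.15), and Atg4a, a protease that processes ATG8 proteins (-0.25 ± 0.11). Over all genes, 42.2% had a higher mean in irradiated mice. The groups of 2 of the 143, Sort1 and Deptor, did not overlap, both on the lower side. Over all genes this held for 3.68%, and for 2.56% on the lower side. Deptor, an inhibitor of mTOR named after its values were seen, differed by -0.20 ± 0.09.

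Sort1, read from the brighter of its 2 probe set rows, had the smallest p of these 143 genes. It encodes sortilin, a receptor that carries progranulin and other cargo from the Golgi to lysosomes. It stood at 7.19, 7.39, 7.26 and 7.10 across sham mice 1 to 4 and at 7.07, 6.75, 6.74 and 6.46 across irradiated mice 1 to 4. All 4 irradiated mice lay below the lowest sham mouse, by a narrow margin for irradiated mouse 1, and the difference was -0.48 ± 0.14 (SE; 95% interval -0.78 to -0.18; adjusted p = 0.819 in limma). Mcoln2, the channel TRPML2, which activated macrophages express, stood at 6.23, 5.87, 5.76 and 5.55 across sham mice 1 to 4 and at 6.29, 6.19, 6.38 and 6.11 across irradiated mice 1 to 4. Sham mouse 1 lay within the irradiated range and the other 3 sham mice below it, a difference of 0.39 ± 0.15. Clcn7, the lysosomal chloride transporter gene, named after its values were seen because its unadjusted p was under 0.05, differed by 0.42 ± 0.16. Of 22 genes of the MiT factors and of mTORC1 control, none had an unadjusted p under 0.05. Fnip2, whose product binds folliculin, was named after its values were seen, for its slope on the macrophage marker mean, 1.46 (adjusted p = 0.022 in limma), the only 1 of the 143 to pass.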

How the data were processed

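The authors deposited log2 probe set levels of 8 Affymetrix arrays, made with RMA and Partek per the submitters' processing notes, with no version or step named there. Each array was hybridised with cDNA amplified by ribo-SPIA from 25 ng of RNA of 1 mouse. That the scale is log2 was read from the values. Array medians lay between 4.68 and 4.73. Of 34365 rows, 23521 carried 1 symbol, and the row with the highest mean was kept per symbol. The test was limma 3.58.1 under R 4.3.3 (two-sided, Benjamini-Hochberg over 22180 genes), with no filter on dim genes, and with 4 arrays a group only wide differences can pass. The 33 genes, the lists and the alternatives were chosen with earlier results of these data known, and no list was tested as a set. Genes named beyond the 33 come from the 2 with the smallest p of each list and from checks of the sort and the treatment, or are said to be chosen after their values were seen. Alternatives covered normalization, dim genes, rows per gene, the variance, array weights, the mouse number, marker means as covariates and arrays left out. The fit was tested on simulated data, and plots were drawn with matplotlib 3.10.9.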

Additional observations from a re-analysis of the deposited data

Results flagged for a closer look

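In 6 of the 66 groups of 4 mice (33 genes in each treatment), 1 mouse lay far from the other 3, by a Dixon ratio of gap to range above 0.829. Chance gives about 1 in 20 for a single group, but the 66 share the same 8 mice and are not independent. Sham mouse 3 was the lowest in 3 of the 6 flagged groups. Atp6v0d1 stood at 8.82 there and at 9.48 to 9.56 in the other sham mice, Atp6v1h at 8.36 against 8.94 to 8.99, and Hexa at 9.95 against 10.39 to 10.45. That mouse also had the lowest macrophage maturation markers (8.69) and the highest T and NK markers (7.79) and neutrophil markers (8.58). The neutrophil mean rested on granule genes of precursors, such as Camp at 10.10, Ngp at 10.08 and Ltf at 9.31. Other markers of that list did not go 1 way. Csf3r, a gene of mature neutrophils, was lowest there (8.07), and Cxcr2 (7.40) and Mmp9 (6.71) lay within the range of the other sham mice. S100a8 stood at 12.21, above every mouse but irradiated mouse 3 (12.31). Apart from Camp, these genes were named after their values were seen. The part of macrophages, lymphocytes and neutrophils in the values was not tested. Irradiated mouse 4 was the lowest for Ctsa, at 10.63 against 11.00 to 11.03, and for Ctsz, at 10.71 against 10.89 to 10.92. Its macrophage maturation markers were the lowest of the irradiated mice (8.70), and their part was not tested. Irradiated mouse 3 was the highest for Atp6v0d1, at 9.61 against 9.43 to 9.44 in the other irradiated mice.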

How the results depend on the processing

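No gene of the 33 passed the adjusted threshold between treatments under any alternative run. With single arrays left out, 0 to 1 of all genes passed. An unadjusted p under 0.05 was found for 0 to 1 of the 33 (Ctsk without sham mouse 3 or irradiated mouse 4, Gusb without irradiated mouse 3). It was found for 1093 to 1403 of all 22180 genes. The groups of 1 to 3 of the 33 did not overlap (6.38% to 7.25% of all genes). With quantile normalization 1 gene of the 33, Ctsz, had an unadjusted p under 0.05 (1265 of all 22180 genes did), and the groups of 2 did not overlap (3.48% of all genes). With the T and NK mean as a covariate, or without sham mice 2 and 3, 1 gene of the 33, Ctsk, had an unadjusted p under 0.05. In the main fit 6.07% of all genes did. Without sham mice 2 and 3 the groups of 6 did not overlap (15.9% of all genes), namely Ctsc, Ctsh, Ctsk, Ctss, Hexa and Tfeb. With dim genes left out 801 genes had an unadjusted p under 0.05, from fewer genes tested. The median difference of each role moved by less than the pooled SD of that role between mice under each alternative, while 14 of the 33 single differences changed sign without sham mice 2 and 3. With the mouse number as a replicate block, 1065 genes had an unadjusted p under 0.05 and 0 passed. None of the 33 was among the 1065. The deviations of same-numbered mice correlated at -0.28 to -0.14. The labels do not say whether the numbers pair the mice, and so few correlations cannot decide it. For the slope on the macrophage mean, 16 to 93 of all genes passed with single arrays left out, against 85 with all, and 0 to 2 of the 33 (Atp6v0d2 without irradiated mouse 1, Atp6v0d2 and Ctsk without irradiated mouse 4). With the T and NK mean in its place 212 genes passed and 2 of the 33, Atp6v0d2 and Gla, with negative slopes; with a trended and robust variance 1 of the 33, Lgmn. Where no value above shows it, the cause was not tested. Signal over background was not tested.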

Other observations

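Cathepsins and a cystatin of other blood cells were uneven across the mice. Ctsw, Cst7 and Ngp were named here after their values were seen. Ctsw, the cathepsin of cytotoxic lymphocytes, stood at 4.77, 8.10, 8.52 and 5.36 in sham mice 1 to 4 and at 6.75, 5.54, 5.09 and 6.99 in irradiated mice 1 to 4, so sham mice 2 and 3, with the highest T and NK markers, were the highest. Cst7, which encodes cystatin F, an inhibitor of cathepsins in cytotoxic and myeloid cells, was highest in the same 2 mice, at 8.21 and 8.26. Ctsg, the serine protease gene of neutrophil precursors, stood at 7.51 in sham mouse 3 and at or below 4.15 in the other 7 mice. Camp and Ngp, other granule genes of neutrophil precursors, stood at 10.10 and 10.08 in that mouse, at 8.02 and 7.78 in sham mouse 2, and at or below 3.69 and 4.79 in the other 6 mice.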
